A study of Mus musculus with 12 samples.

Results

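The 9 genes described here are Igf1, which encodes a ligand, Igf1r and Igf2r, which encode receptors, and Igfbp2, Igfbp3, Igfbp4, Igfbp5, Igfbp6 and Igfbp7, which encode insulin-like growth factor (IGF) binding proteins. They were taken by symbol from a table of 41214 mouse genes, each symbol matched 1 Ensembl identifier, and all 9 passed the filter on low counts that left 15171 genes for testing. The study sequenced polyadenylated RNA of endothelial cells sorted from embryonic mouse hearts, in 12 libraries of 2 populations at 2 stages. Endocardial cells line the chambers of the heart, and coronary cells form the vessels of its wall. The comparisons ask how the populations differ at each stage and how each differs between stages.

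The E17 coronary group had 2 libraries, and the E17 endocardial group had 2. Both came from ventricles collected at E17.5 from embryos with Nes-CreER(Tg/0), a tamoxifen-dependent recombinase, and the tomato reporter R26 (tom/+), together with Nes-Gfp(Tg/0). All E17 embryos had received 0.1 ug of tamoxifen at E15.5. The E13 coronary group had 4 libraries, and the E13 endocardial group had 4. Both came from ventricles collected at E13.5 from Nes-gfp (Tg/0) embryos, for which the labels name no tamoxifen. Regulatory sequence of the nestin gene drives the GFP and the recombinase, so which cells carried these labels depended on that sequence. Atria and the aortic region were removed and the tissue was digested with liberase. Sorted cells of every group were negative for DAPI, Ter119 and CD45 and positive for CD31. At E13, coronary cells were GFP+ and endocardial cells were GFP-low and high for endomucin (Emcn). At E17, 2 coronary gates are described, both Emcn-low, of which one took Tomato+ cells (arteries and capillaries) and the other took Tomato-, GFP-low cells (veins). The labels do not say which gate gave the E17 coronary libraries, and the E17 endocardial gate is given as GFP+. Stage, the added alleles, tamoxifen, the sort gates and batch cannot be told apart in the comparisons of E17 with E13. The labels do not say whether replicates came from separate litters, and the p-values therefore describe library-to-library spread, part of which may be technical.

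IGF1 and IGF2 signal through the IGF1 receptor, a tyrosine kinase that also pairs with the insulin receptor. The product of Igf2r, the cation-independent mannose-6-phosphate receptor, takes up IGF2 for degradation, and in mouse its gene is imprinted and expressed mainly from the maternal copy. Binding proteins hold IGFs outside the cell and can limit or prolong their action, until proteases such as PAPP-A and HTRA1 cut some of them. In the embryonic heart, IGF2 from the outer layer and the endocardium is known as a growth signal for the ventricular wall.

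The promoters of 7 members are shown because these members passed the test between the populations in the same direction at both stages. The first 3 belong to genes that were lower in coronary libraries and the last 4 to genes that were higher. Igfbp2 had 2 entries, of which the first is shown. Each runs 5′ to 3′ on the strand of its gene, from 250 bases before to 50 bases after the start, as given by RefSeq for GRCm38.p6, where all 9 members had an entry. Capitals mark matches on either strand to any of 3 motifs, and matches that touch or overlap form 1 run. The TATA box was searched as TATAAA. The GC box, a site of SP1-type factors, was searched as GGGCGG. The E-box, a site of basic helix-loop-helix factors, was searched as CACGTG.
Igfbp5, chr1:72874816-72875115, minus strand: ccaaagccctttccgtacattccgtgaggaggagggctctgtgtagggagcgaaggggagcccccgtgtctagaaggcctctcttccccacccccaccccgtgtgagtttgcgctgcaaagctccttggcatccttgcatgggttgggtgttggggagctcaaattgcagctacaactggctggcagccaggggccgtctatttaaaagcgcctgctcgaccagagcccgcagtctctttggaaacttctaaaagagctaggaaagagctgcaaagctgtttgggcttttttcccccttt
Igf2r, chr17:12769657-12769956, minus strand: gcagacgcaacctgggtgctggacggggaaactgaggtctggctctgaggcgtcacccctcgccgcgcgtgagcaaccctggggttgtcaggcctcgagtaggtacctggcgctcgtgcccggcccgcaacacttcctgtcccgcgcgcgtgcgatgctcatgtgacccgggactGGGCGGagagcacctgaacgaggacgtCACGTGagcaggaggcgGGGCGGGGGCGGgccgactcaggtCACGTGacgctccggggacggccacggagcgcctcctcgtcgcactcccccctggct
Igfbp4, chr11:99040994-99041293, plus strand: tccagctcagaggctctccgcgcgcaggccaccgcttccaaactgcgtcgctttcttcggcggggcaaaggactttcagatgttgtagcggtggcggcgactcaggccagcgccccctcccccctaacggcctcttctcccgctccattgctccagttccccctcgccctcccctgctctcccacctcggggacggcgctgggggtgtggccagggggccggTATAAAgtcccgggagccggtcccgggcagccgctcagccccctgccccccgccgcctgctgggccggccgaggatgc
Igfbp3, chr11:7213874-7214173, minus strand: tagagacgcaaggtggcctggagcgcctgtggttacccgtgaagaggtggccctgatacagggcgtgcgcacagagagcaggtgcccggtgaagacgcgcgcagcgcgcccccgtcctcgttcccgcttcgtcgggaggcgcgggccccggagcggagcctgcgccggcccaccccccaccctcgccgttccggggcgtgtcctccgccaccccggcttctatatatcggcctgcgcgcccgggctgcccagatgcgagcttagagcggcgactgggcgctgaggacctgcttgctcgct
Igfbp7, chr5:77407996-77408295, minus strand: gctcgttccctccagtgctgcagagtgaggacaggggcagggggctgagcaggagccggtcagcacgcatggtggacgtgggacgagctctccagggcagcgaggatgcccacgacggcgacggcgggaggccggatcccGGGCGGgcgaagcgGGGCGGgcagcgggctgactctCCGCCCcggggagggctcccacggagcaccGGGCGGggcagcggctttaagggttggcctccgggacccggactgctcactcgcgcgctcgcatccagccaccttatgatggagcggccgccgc
Igf1r, chr7:67952007-67952306, plus strand: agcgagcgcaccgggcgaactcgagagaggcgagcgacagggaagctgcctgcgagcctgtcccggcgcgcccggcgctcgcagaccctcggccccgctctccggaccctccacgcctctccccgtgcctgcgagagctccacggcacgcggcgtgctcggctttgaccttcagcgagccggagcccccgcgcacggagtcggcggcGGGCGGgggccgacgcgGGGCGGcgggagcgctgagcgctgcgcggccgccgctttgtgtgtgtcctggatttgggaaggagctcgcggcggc
Igfbp2, chr1:72824230-72824529, plus strand: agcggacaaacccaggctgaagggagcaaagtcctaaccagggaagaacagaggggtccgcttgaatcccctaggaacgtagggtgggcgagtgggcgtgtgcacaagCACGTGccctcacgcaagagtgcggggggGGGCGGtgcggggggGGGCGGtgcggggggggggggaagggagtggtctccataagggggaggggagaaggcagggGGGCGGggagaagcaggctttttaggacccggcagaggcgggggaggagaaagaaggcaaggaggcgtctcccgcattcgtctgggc

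These windows differed in composition. Igfbp5 held 10 CG dinucleotides and none of the 3 motifs, against a median of 7 CG dinucleotides over 32851 mouse promoters of the same length. Igf2r held 34, with 3 GC boxes and 2 E-boxes, and Igfbp7 held 33, with 4 GC boxes. Igfbp4 held 27 with 1 TATA box, and Igfbp3 held 37 with none of the motifs. Igf1r held 48 with 2 GC boxes. Its window ends at base 67952306, while its gene span in the GENCODE annotation starts at base 67952827, so the 2 sources place its start differently. The entry shown for Igfbp2 held 18, with 3 GC boxes and 1 E-box, and its other entry held 14 and none of the motifs. Of all promoters, 35.7% held the GC box, 13.6% the TATA box and 7.15% the E-box. Neither direction of difference went with a motif that all of its members held, and no match says only that these letters are not in this window.

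In GRCm38, Igf1 spans chr10:87858265-87937042 and Igf1r spans chr7:67952827-68233668, both on the plus strand, and Igf2r spans chr17:12682406-12769664 on the minus strand. Igfbp4 (chr11:99041244-99054392) and Igfbp6 (chr15:102144362-102149511) lie on the plus strand, and Igfbp3 (chr11:7206086-7213923) and Igfbp7 (chr5:77349240-77408041) on the minus strand.

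Levels are given as CPM, a per-library count proportion with TMM-scaled library sizes, and fold changes as log2 ratios ± SE of 1 edgeR quasi-likelihood fit with Benjamini-Hochberg adjusted p. Libraries held 14973633 to 27360653 counts. The sum of 10 endothelial markers was 12243 to 14006 CPM in E17 coronary, 11577 to 12404 in E17 endocardial, 6521 to 8794 in E13 coronary and 10187 to 11299 in E13 endocardial libraries. The sum of 5 endocardial markers was 161 to 166 CPM in E17 coronary libraries, against 5559.8 to 5853 in E17 endocardial libraries. At E13 it was 958 to 1278 CPM in coronary libraries, against 4482 to 4761 in endocardial libraries, so endocardial libraries carried more of them at both stages. Markers of other cells were also present. The sum of 9 fibroblast markers was 2183 to 4812 CPM in E17 coronary, 2211 to 2453 in E17 endocardial, 2633 to 6989.6 in E13 coronary and 1822 to 2053 in E13 endocardial libraries, with no marker at 0. The most abundant of them was Postn in E17 endocardial libraries and Col3a1 in the other groups. The sum of 10 mural cell markers was 863 to 1124 CPM in E17 coronary, 179 to 180.5 in E17 endocardial, 384 to 743 in E13 coronary and 249 to 272 in E13 endocardial libraries, again with none at 0. The most abundant of these in coronary libraries was Abcc9, at a mean of 527 CPM at E17 and 146 CPM at E13. In endocardial libraries it was Pdgfrb. Which cells these transcripts came from was not tested. In bulk libraries, fewer cells that express a gene and less RNA of it per cell cannot be told apart.

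**Figure D1:**
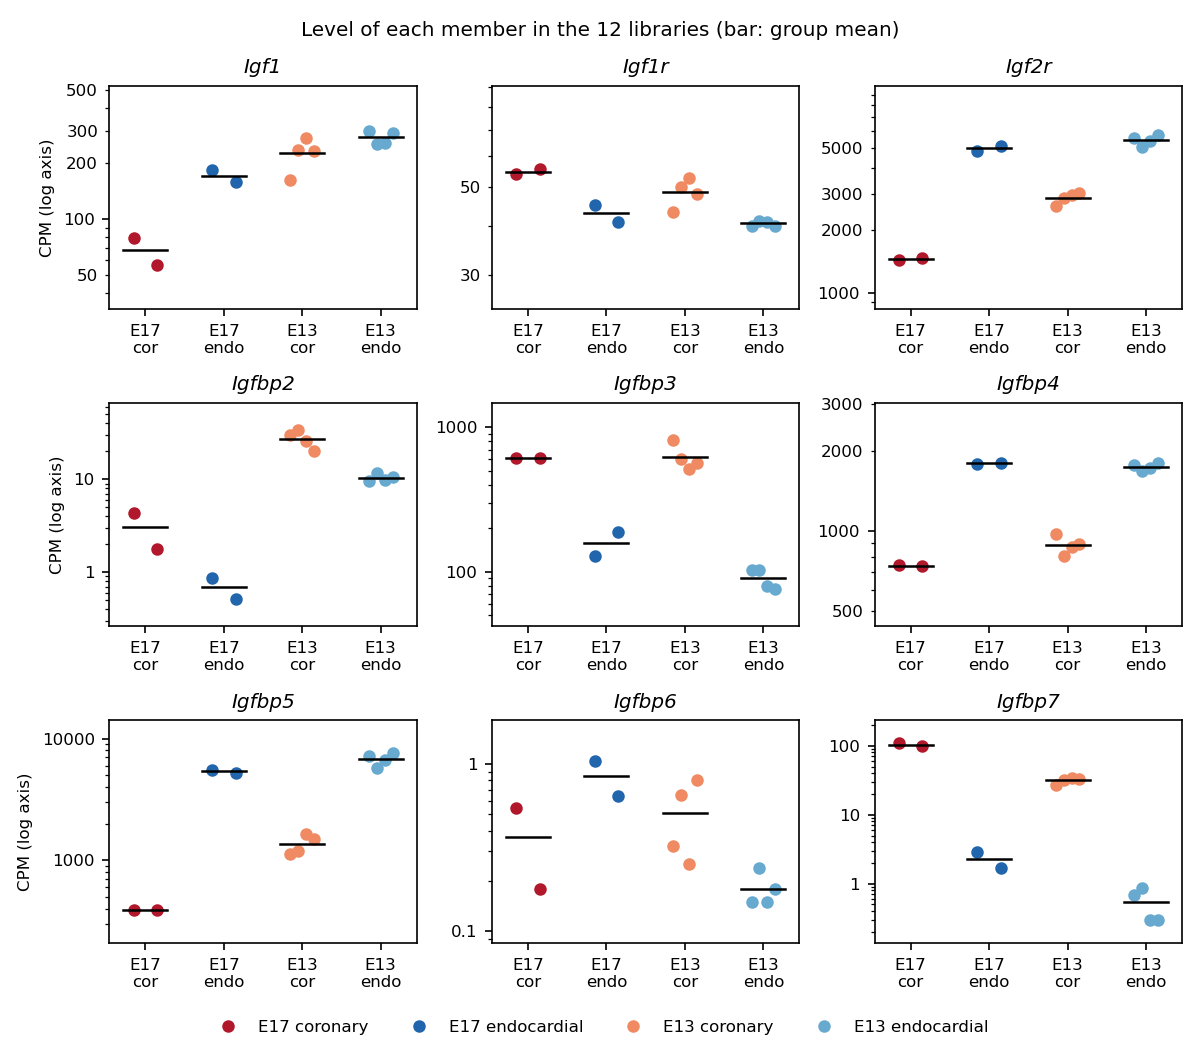
Level of each of the 9 genes in every library, in CPM on a log axis, with points for libraries and bars for group means. Igfbp5, Igf2r and Igfbp4 sit lower in coronary than in endocardial libraries at both stages, while Igfbp3 and Igfbp7 sit higher.

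Between the populations, 8 of the 9 members passed the threshold of 0.05 at E17, 4 higher and 4 lower in coronary libraries. Of all genes tested there, 52.6% passed, 26.5% higher and 26.1% lower. At E13, 8 members passed as well, 5 higher and 3 lower, while 60.0% of all genes passed, 30.1% higher and 29.9% lower. Passing was thus common among all genes. The median absolute log2 fold change of the members was 1.78 at E17 and 1.39 at E13, and that of all genes tested was 0.46 at E17 and 0.37 at E13. Since the members were chosen with earlier results of these data known, this contrast in size is a description and no independent result.

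Igf1, the ligand among the members, was lowest in E17 coronary libraries. It measured 78.9 and 56.9 CPM in E17 coronary libraries, against 185 and 158 CPM in E17 endocardial libraries. At E13 it measured 163, 237, 275 and 234 CPM in coronary libraries, against 301, 253, 258 and 292 CPM in endocardial libraries. The groups were apart at E17 and overlapped at E13. The coronary minus endocardial difference was -1.34 ± 0.21 at E17 (adjusted p = 0.000177) and -0.28 ± 0.14 at E13 (adjusted p = 0.107). Leaving out E13 coronary replicate 3, the highest coronary library, brought the E13 difference to -0.36 with an adjusted p of 0.0407, within a range of 0.0407 to 0.332 over the alternatives tried. The change of this difference between stages passed, at -1.06 ± 0.25 (adjusted p = 0.00674).

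Igf1 was lower at E17 than at E13 in both populations, with fitted values of -1.74 ± 0.19 in coronary libraries (adjusted p = 1.33e-05) and -0.69 ± 0.18 in endocardial libraries (adjusted p = 0.0115). The second call was lost without E17 endocardial replicate 2, where the adjusted p was 0.113 (range over alternatives 0.000282 to 0.113). Within the E13 coronary group, Igf1 was lowest in replicate 1 and highest in replicate 3. Those are also the libraries with the lowest and the highest fibroblast marker sums, 2633 and 6989.6 CPM. In the E17 coronary group the library with more Igf1, replicate 1, had a fibroblast marker sum of 4812 CPM, against 2183 CPM in replicate 2. Replicates 1 and 3 of the E13 coronary group also had the lowest and the highest mural marker sums, 384 and 743 CPM. The part of fibroblast or mural RNA in the level of Igf1 was not tested.

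Igf2, the other IGF ligand and not one of the 9 genes, was far more abundant. Per kilobase of exon, which allows genes to be compared, the level of Igf2 was 177 ± 43.7 times that of Igf1 in E17 coronary libraries and 257 ± 41.3 times in E17 endocardial libraries (SD, n = 2 each). At E13 it was 79.8 ± 13.4 times in coronary libraries and 111 ± 4.46 times in endocardial libraries (SD, n = 4 each). Ins1 was listed at 0 in every library, and Ins2 reached 2 counts over all E13 coronary libraries and none elsewhere.

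The receptor genes differed between the populations in opposite directions. Igf1r, the signalling receptor, was slightly higher in coronary libraries. It measured 54.1 and 55.5 CPM in E17 coronary libraries, against 45.2 and 40.8 CPM in E17 endocardial libraries. Its E13 values were 43.3, 50.2, 52.8 and 48.0 CPM in coronary libraries, against 40.0, 41.1, 40.9 and 40.0 CPM in endocardial libraries. The groups did not overlap at either stage, but the differences were small, 0.35 ± 0.09 at E17 (adjusted p = 0.00442) and 0.26 ± 0.06 at E13 (adjusted p = 0.00236). Among E13 coronary libraries Igf1r was lowest in replicate 1 and highest in replicate 3, as were the fibroblast and mural marker sums. On the log2 scale these libraries lay at -0.17 and 0.12 from their group mean. The part of those markers in the level of Igf1r was not tested. Between stages Igf1r did not pass in either population, with 0.17 ± 0.07 in coronary libraries (adjusted p = 0.0657) and 0.09 ± 0.07 in endocardial libraries (adjusted p = 0.412). In coronary libraries it passed without E13 coronary replicate 3 (0.21, adjusted p = 0.0313, range over alternatives 0.0313 to 0.249).

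CPM is not scaled for gene length. By CPM, Igf2r, which clears IGF2, was among the highest genes of the endocardial libraries. It stood at rank 9 of 15042 ranked genes at E17 and rank 8 at E13. It measured 1429 and 1467 CPM in E17 coronary libraries, against 4835 and 5086 CPM in E17 endocardial libraries. E13 values were 2617, 2872, 2945 and 3034 CPM in coronary libraries, against 5565, 5036, 5405 and 5776 CPM in endocardial libraries. Every coronary library was below every endocardial one at both stages. The coronary minus endocardial difference was -1.78 ± 0.08 at E17 (adjusted p = 6.97e-09) and -0.93 ± 0.06 at E13 (adjusted p = 5.3e-08), and it differed between stages by -0.85 ± 0.10 (adjusted p = 4.09e-05). Coronary libraries were lower at E17 than at E13, at -0.99 ± 0.07 (adjusted p = 4.9e-07). Endocardial libraries overlapped between the stages, at -0.13 ± 0.07 (adjusted p = 0.162).

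The balance of the receptor transcripts differed between the groups. Per kilobase, Igf2r was 47.6 ± 0.00919 times as high as Igf1r in E17 coronary libraries and 209 ± 22.8 times in E17 endocardial libraries (SD, n = 2 each). At E13 the ratio was 107 ± 6.07 in coronary and 243 ± 17.1 in endocardial libraries (SD, n = 4 each). The insulin receptor gene Insr, whose product can pair with that of Igf1r, was 1.16 ± 0.0962 times as high per kilobase as Igf1r in E17 coronary libraries and 2.68 ± 0.0199 times in E17 endocardial libraries (SD, n = 2 each). At E13 these ratios were 1.48 ± 0.0508 in coronary and 2.83 ± 0.219 in endocardial libraries (SD, n = 4 each). Neither ratio overlapped between the populations at either stage. The size of these ratios depends on the length used, which the SD does not cover. Without scaling for length, mean CPM in E17 coronary libraries was 52.2 for Insr and 54.8 for Igf1r. Which of these genes was higher there thus depended on the scaling. Exons of Igf1r span 16791 bp and its longest transcript 11409 bp, against 9308 and 8887 bp for Igf2r. Transcript lengths would give a lower ratio of Igf2r to Igf1r in all groups alike, and were not tried for these ratios. The libraries do not mark strand, and Airn, the imprinted antisense RNA at Igf2r, shares no exon with it and had 10267 counts over the 12 libraries, against 900587 for Igf2r.

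**Figure D2:**
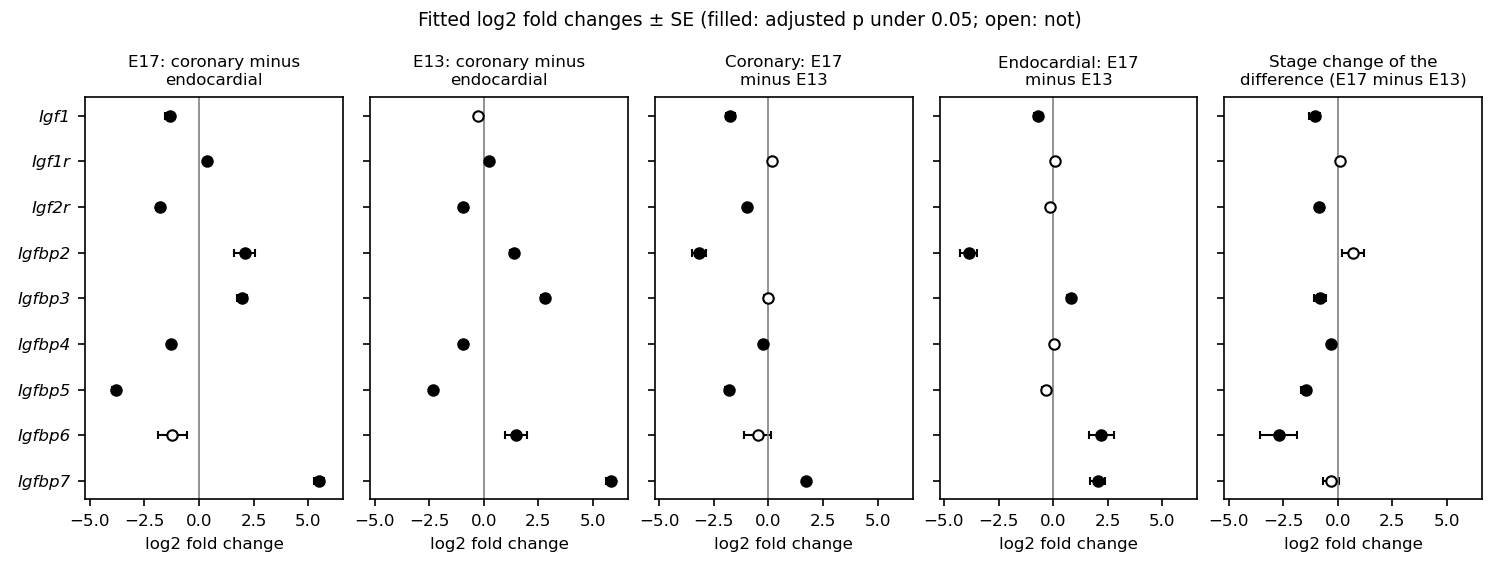
Fitted log2 fold change ± SE of each gene in the 5 comparisons, with filled points for adjusted p under 0.05 and open points otherwise. Igfbp7 lies farthest to the right in both comparisons of populations, at 5.50 for E17 and 5.82 for E13, and Igfbp5 farthest to the left, at -3.79 for E17 and -2.32 for E13.

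Igfbp5 and Igfbp4 were lower in coronary than in endocardial libraries at both stages. Igfbp5, whose product binds IGFs and matrix, measured 391 and 389 CPM in E17 coronary libraries, against 5533 and 5231 CPM in E17 endocardial libraries. At E13 it measured 1118, 1189, 1659 and 1486 CPM in coronary libraries, against 7225, 5751, 6663 and 7657 CPM in endocardial libraries. It ranked 7 by CPM in E17 endocardial and 6 in E13 endocardial libraries, and 422 in E17 coronary and 41 in E13 coronary libraries. Mean CPM was lower in coronary than in endocardial libraries by a factor of 13.8 at E17 and 5.01 at E13. The fitted differences were -3.79 ± 0.19 at E17 (adjusted p = 1.29e-08) and -2.32 ± 0.12 at E13 (adjusted p = 2.18e-08), and the change between stages was -1.46 ± 0.21 (adjusted p = 0.000214).

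In coronary libraries Igfbp5 was lower at E17 than at E13, at -1.81 ± 0.16 (adjusted p = 2.16e-06). In endocardial libraries the stages did not overlap, with all E17 values below all E13 values, but the difference of -0.34 ± 0.15 missed the threshold (adjusted p = 0.0998). That call depended on the fit, with adjusted p = 0.0462 in DESeq2, 0.0198 when edgeR was fitted to those libraries alone and 0.0487 without E13 coronary replicate 3, in a range of 0.0198 to 0.328. Among E13 coronary libraries Igfbp5 was lowest in replicate 1 and highest in replicate 3, the libraries with the lowest and the highest fibroblast marker sum. In the E17 coronary libraries that sum was 4812 and 2183 CPM, while Igfbp5 was at 391 and 389 CPM. E13 coronary replicates 1 and 3 also had the lowest and the highest endocardial marker sum of their group. In replicate order that sum was 958, 1028, 1278 and 1203 CPM, and Igfbp5 ranked these libraries the same way. In E17 coronary libraries the endocardial marker sum was 161 and 166 CPM. The part of either marker list in the level of Igfbp5 was not tested.

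Igfbp4, whose product mainly holds IGFs back until PAPP-A cuts it, varied little within groups. It measured 747 and 736 CPM in E17 coronary libraries, against 1788 and 1805 CPM in E17 endocardial libraries. Its level at E13 was 976, 808, 869 and 895 CPM in coronary libraries, against 1773, 1678, 1725 and 1795 CPM in endocardial libraries. The coronary level was lower at both stages, at -1.28 ± 0.08 at E17 (adjusted p = 6.79e-08) and -0.97 ± 0.05 at E13 (adjusted p = 2.92e-08). The change between stages, -0.30 ± 0.09, passed (adjusted p = 0.0275). It did not pass when E17 endocardial replicate 1 (adjusted p = 0.0723), E17 endocardial replicate 2 (0.0814) or E17 coronary replicate 2 (0.0955) was left out, or without the filter on low counts (0.0576), in a range of 0.00512 to 0.0955. Igfbp4 was also lower in E17 than in E13 coronary libraries, at -0.26 ± 0.07 (adjusted p = 0.00678). Without E17 coronary replicate 2 the adjusted p was 0.0557, the highest of a range from 0.000258. Endocardial libraries overlapped between stages (0.04 ± 0.07, adjusted p = 0.664).

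Igfbp3, Igfbp7 and Igfbp2 were higher in coronary libraries. Igfbp3 encodes the main IGF carrier of the blood. It measured 614 and 615 CPM in E17 coronary libraries, against 129 and 187 CPM in E17 endocardial libraries. At E13 it stood at 818, 599, 516 and 568 CPM in coronary libraries, against 102, 103, 79.0 and 75.8 CPM in endocardial libraries. The lowest coronary library was well above the highest endocardial one at both stages, and mean CPM was 3.90 times as high in coronary libraries at E17 and 6.95 times at E13. The differences were 1.96 ± 0.23 at E17 (adjusted p = 1.62e-05) and 2.80 ± 0.17 at E13 (adjusted p = 4.76e-08).

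The coronary level of Igfbp3 overlapped between stages, with a fitted -0.02 ± 0.19 (adjusted p = 0.927). In endocardial libraries it was higher at E17 than at E13, by 0.81 ± 0.19 (adjusted p = 0.00652), a call that was lost without E17 endocardial replicate 2 (0.51, adjusted p = 0.137, range over alternatives 0.00116 to 0.137). The narrower gap at E17, a change of -0.83 ± 0.27 (adjusted p = 0.0344), was not past the threshold when any of 5 libraries was left out. These were E13 endocardial replicate 3 (adjusted p = 0.0615) and 4 (0.0607), E17 endocardial replicate 2 (0.204), and E17 coronary replicate 1 (0.0836) and 2 (0.102), in a range of 0.0066 to 0.204. Among E13 coronary libraries Igfbp3 was highest in replicate 1, which had the lowest fibroblast and mural marker sums of its group, and lowest in replicate 3, which had the highest.

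Igfbp7 showed the largest ratio between the populations among the members. Its product binds IGFs weakly and is known as a vascular matrix protein and a ligand of CD93. It measured 109.9 and 98.2 CPM in E17 coronary libraries, against 2.84 and 1.69 CPM in E17 endocardial libraries. At E13 it measured 27.2, 32.4, 33.8 and 33.4 CPM in coronary libraries, against 0.676, 0.865, 0.300 and 0.297 CPM in endocardial libraries. The endocardial values rest on few counts, 52 and 26 at E17 and 18, 18, 6 and 5 at E13. From pooled counts over unscaled totals, the coronary level was 45.2 times the endocardial level at E17 (exact 95% interval 36.1 to 57.3) and 61.6 times at E13 (46.2 to 84.1). These intervals cover counting error only. The fitted differences were 5.50 ± 0.24 at E17 (adjusted p = 5.09e-09) and 5.82 ± 0.21 at E13 (adjusted p = 1.65e-09).

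In coronary libraries, Igfbp7 was the 1 member whose E17 level passed the test as above its E13 level, by 1.71 ± 0.15 (adjusted p = 1.72e-06). It was higher at E17 in endocardial libraries too, by 2.04 ± 0.34 (adjusted p = 0.000703). The difference between populations did not pass for a change between stages (-0.32 ± 0.36, adjusted p = 0.54). Polr2b on the opposite strand overlaps 85 bp of Igfbp7 exons, 7.03% of their length, and reads there cannot be assigned to one gene by strand. Cd93, whose product binds that of Igfbp7, averaged 2294 CPM in E17 coronary and 2300.2 CPM in E17 endocardial libraries. At E13 it averaged 1071 CPM in coronary and 2091 CPM in endocardial libraries. Cd93 was thus lower in coronary libraries at E13 (-0.96 ± 0.10, adjusted p = 5.8e-06) and near equal at E17 (-0.00 ± 0.14, adjusted p = 0.987), where its sign changed with the scaling (0.02 with DESeq2 size factors). The change between stages was 0.96 ± 0.18 (adjusted p = 0.00132).

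Igfbp2, whose product binds IGFs and also integrins, was lower at E17 than at E13 in both populations. It measured 4.32 and 1.80 CPM in E17 coronary libraries, against 0.873 and 0.519 CPM in E17 endocardial libraries. E13 values were 29.8, 33.7, 25.7 and 20.2 CPM in coronary libraries, against 9.62, 11.7, 9.75 and 10.6 CPM in endocardial libraries. All 4 groups were apart, in the order E13 coronary, E13 endocardial, E17 coronary and E17 endocardial. Relative to E13, the pooled E17 level was 0.0965 in coronary libraries (exact 95% interval 0.0776 to 0.119) and 0.0662 in endocardial libraries (0.0422 to 0.0991), intervals that cover counting error and not the spread between libraries. The fitted changes were -3.18 ± 0.31 in coronary libraries (adjusted p = 4.66e-06) and -3.87 ± 0.38 in endocardial libraries (adjusted p = 1.82e-05). The coronary excess was 2.08 ± 0.46 at E17 (adjusted p = 0.00208) and 1.39 ± 0.20 at E13 (adjusted p = 8.11e-05), and it did not differ between stages past the threshold (0.69 ± 0.51, adjusted p = 0.337). The E17 excess was 1.36 without E17 coronary replicate 1 and 2.60 without E17 coronary replicate 2, and the coronary change between stages was -3.92 and -2.66 without the same libraries, all past the threshold.

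Markers of other cells also differed between the populations. At E17, 4 of 9 fibroblast markers were higher and 2 lower in coronary libraries, and 9 of 10 mural and 4 of 8 epicardial markers were higher, where 26.5% of all genes tested passed as higher and 26.1% as lower. At E13, where 30.1% of all genes passed as higher and 29.9% as lower, 8 of 9 fibroblast, 6 of 10 mural and 6 of 8 epicardial markers were higher in coronary libraries, and 1 epicardial marker was lower. The sum of the epicardial markers was 145 to 157 CPM in E17 coronary, 14.1 to 15.7 in E17 endocardial, 81.5 to 95.3 in E13 coronary and 17.1 to 21.3 in E13 endocardial libraries, with none at 0. In coronary libraries most of this sum was Wt1, at a mean of 119 CPM at E17 and 56.2 CPM at E13. Which cells the Wt1 transcripts came from was not tested. The part of these markers in the levels of Igf1r, Igfbp2, Igfbp3, Igfbp6 and Igfbp7, the members that passed as higher in coronary libraries at one stage or both, was not tested.

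Igfbp6, whose product prefers IGF2, was barely detected. It had 8 and 3 counts in E17 coronary libraries, against 19 and 10 in E17 endocardial libraries. At E13 it had 6, 15, 5 and 15 counts in coronary libraries, against 4, 5, 3 and 3 in endocardial libraries. The highest level in any library was 1.04 CPM. Pooled, the coronary to endocardial ratio was 0.412 at E17 (exact 95% interval 0.186 to 0.850) and 3.10 at E13 (1.68 to 6.04), where the intervals cover counting error only. The fitted difference was -1.23 ± 0.67 at E17 (adjusted p = 0.146) and 1.47 ± 0.51 at E13 (adjusted p = 0.0253). The E13 call was lost without E13 endocardial replicate 1 (adjusted p = 0.0628), E13 endocardial replicate 3 (0.0586), E13 coronary replicate 2 (0.0633) or E13 coronary replicate 4 (0.0757), in a range of 0.0126 to 0.0757. The endocardial rise between stages, 2.20 ± 0.58 (adjusted p = 0.0115), was lost without E17 endocardial replicate 1 (0.134, range over alternatives 0.00595 to 0.134). The change between stages of its population difference, -2.70 ± 0.84 (adjusted p = 0.028), was lost when any of 5 libraries was left out. These were E13 endocardial replicate 1 (adjusted p = 0.0507), E13 coronary replicate 2 (0.051) and 4 (0.0504), E17 endocardial replicate 1 (0.125) and E17 coronary replicate 2 (0.134), in a range of 0.0175 to 0.134.

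Per kilobase of exon, the 6 binding protein genes summed to 517 ± 9.85 CPM per kb in E17 coronary and 1356 ± 20.7 CPM per kb in E17 endocardial libraries (SD, n = 2 each). At E13 they summed to 669 ± 37.5 CPM per kb in coronary and 1566 ± 146 CPM per kb in endocardial libraries (SD, n = 4 each). The sums did not overlap between the populations at either stage. Igfbp5 made up 12.5% ± 0.194 of the sum in E17 coronary libraries, against 66.1% ± 1.61 in E17 endocardial libraries (SD, n = 2 each). At E13 it made up 34.0% ± 6.19 in coronary libraries, against 72.4% ± 2.11 in endocardial libraries (SD, n = 4 each). Igfbp4 took a similar share everywhere, with group means between 25.3% and 32.5%.

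In the coronary groups Igfbp3 and Igfbp7 made up more of the sum. Igfbp3 made up 38.0% ± 0.759 in E17 coronary libraries, against 3.72% ± 1.03 in E17 endocardial libraries (SD, n = 2 each). At E13 it made up 29.8% ± 5.49 in coronary libraries, against 1.86% ± 0.423 in endocardial libraries (SD, n = 4 each). Igfbp7 made up 16.6% ± 1.01 in E17 coronary libraries, against 0.138% ± 0.0476 in E17 endocardial libraries (SD, n = 2 each). In E13 coronary libraries its share was 3.94% ± 0.516 (SD, n = 4). With lengths of the longest transcript in place of all exons, the Igfbp5 share was 10.8% in E17 coronary and 62.5% in E17 endocardial libraries. It was 29.8% in E13 coronary and 69.3% in E13 endocardial libraries, so the order of the groups held. The largest mean share in E13 coronary libraries then fell to Igfbp3, at 33.7%, with Igfbp4 at 30.3%. Which binding protein was largest there thus depended on the length used.

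**Figure D3:**
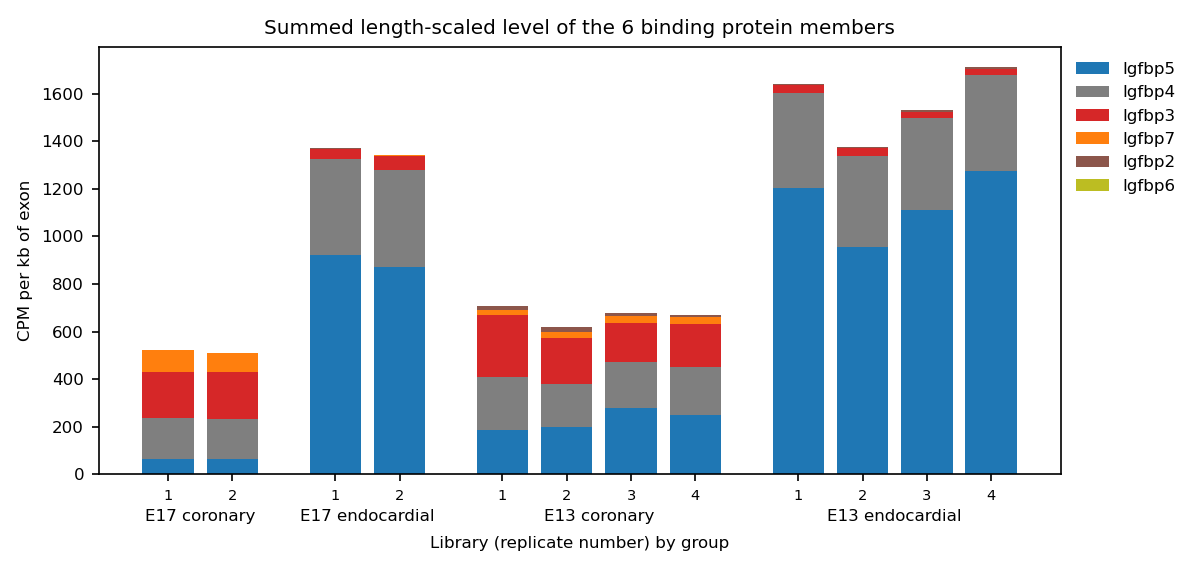
Level per kilobase of exon of the 6 binding protein genes, stacked for each library, with libraries in 4 groups along the axis. Endocardial bars reach 1342 to 1712 CPM per kb and are mostly Igfbp5, while coronary bars reach 510.4 to 707 CPM per kb and are mixed.

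From E13 to E17, 6 of the 9 members passed in coronary libraries, 1 higher and 5 lower, where 50.1% of all genes passed, 24.6% higher and 25.6% lower. In endocardial libraries 5 passed, 3 higher and 2 lower, where 31.8% of all genes passed, 16.2% higher and 15.6% lower. The endocardial count was 3 without E17 endocardial replicate 2. All 5 endocardial markers passed as lower in E17 than in E13 coronary libraries (median log2 fold change -3.46). For the change between stages of the coronary minus endocardial difference, all 5 also passed with a negative sign (median -3.66). Their part in the levels of the members was not tested. For that same change, 6 members passed (Igf1, Igf2r, Igfbp3, Igfbp4, Igfbp5 and Igfbp6) and all had a negative sign. Of all genes, 32.7% passed, 16.2% with a positive and 16.5% with a negative sign. That count was 3 without E17 coronary replicate 2.

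Libraries of one coronary group were not alike for every member. In the E17 coronary group, Igfbp3, Igfbp4 and Igfbp5 stayed within 0.01 of the group mean on the log2 scale, while Igfbp2 was at 0.50 in replicate 1 and -0.77 in replicate 2. The fibroblast marker sum was at 0.46 and -0.68 in the same libraries. In the E13 coronary group, Igf1 was at -0.48 in replicate 1 and 0.27 in replicate 3, and Igfbp3 was at 0.39 and -0.28. The fibroblast marker sum was at -0.90 and 0.51 there, and the sum of 5 coronary capillary markers at 0.39 and -0.52. Igfbp5 was at -0.29 and 0.28 in the same libraries, and the sum of 5 endocardial markers at -0.22 and 0.19. The mural marker sum was at -0.56 and 0.39 in these libraries, and the endothelial marker sum at 0.23 and -0.20. Igfbp3 thus ran in the direction of the capillary and endothelial markers, and Igf1 in that of the fibroblast, mural and endocardial markers. In the E17 coronary group the capillary sum was at -0.20 and 0.18, while Igfbp3 hardly differed. This describes few libraries with no test, and it ties neither gene to a single cell type.

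**Figure D4:**
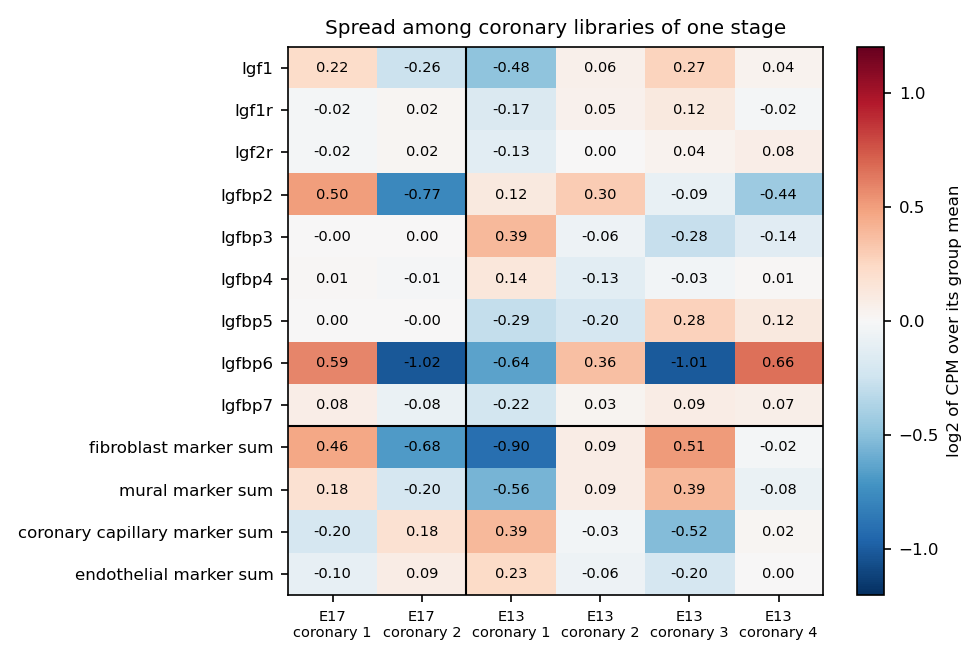
Log2 of each value over the mean of its group, for the 2 E17 and 4 E13 coronary libraries (columns), with the 9 genes above and sums of marker lists below the line. E13 replicate 1 is low for the fibroblast markers (-0.90) and high for Igfbp3 (0.39), and E13 replicate 3 is high for the fibroblast markers (0.51) and low for Igfbp3 (-0.28).

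Of 43 other genes of the pathway, chosen for their role as ligands, receptors, carriers, proteases, adapters or kinases, 36 were tested. Between the populations, 8 were higher and 11 lower in coronary libraries at E17, and 11 were higher and 13 lower at E13. Of all genes tested, 52.6% passed at E17 and 60.0% at E13. Their median absolute log2 fold change was 0.30 at E17 and 0.37 at E13, and that of all genes was 0.46 at E17 and 0.37 at E13. The other carriers were hardly present, since Igfbp1 and Igfbpl1 did not reach the filter and Igfals, whose product completes the blood complex with IGFBP3, was listed at 0 in every library.

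Of 6 genes that act on binding proteins through proteolysis, 1 was higher and 1 lower in coronary libraries at E17, where 52.6% of all genes tested passed in either direction. At E13, where 60.0% passed, 4 were higher and 1 lower. Htra1, a secreted protease that cuts IGFBP5, measured 39.3 and 45.5 CPM in E17 coronary libraries, against 12.1 and 8.36 CPM in E17 endocardial libraries. At E13 it measured 86.2, 132, 152 and 114 CPM in coronary libraries, against 4.28, 2.26, 2.60 and 2.38 CPM in endocardial libraries. Coronary libraries were higher at both stages, by 2.04 ± 0.29 at E17 (adjusted p = 7.44e-05) and 5.35 ± 0.23 at E13 (adjusted p = 5.2e-09). Htra1 was higher in the population where Igfbp5 was lower, at both stages. Between stages this did not hold in coronary libraries, where Htra1 changed by -1.51 ± 0.23 (adjusted p = 0.00017) and Igfbp5 by -1.81 ± 0.16. In endocardial libraries Htra1 changed by 1.80 ± 0.30 (adjusted p = 0.00072), and Igfbp5 did not pass. RNA levels do not measure the cutting of a protein. Among E13 coronary libraries Htra1 was lowest in replicate 1 and highest in replicate 3, as was the fibroblast marker sum, and the part of those markers was not tested.

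Pappa, whose protease cuts IGFBP4, was lower in coronary libraries at E17 and higher at E13. It measured 0.892 and 0.240 CPM in E17 coronary libraries, against 4.47 and 3.63 CPM in E17 endocardial libraries. E13 levels were 7.90, 14.1, 18.6 and 13.1 CPM in coronary libraries, against 5.45, 7.35, 5.75 and 6.66 CPM in endocardial libraries. The coronary minus endocardial difference was -2.87 ± 0.51 at E17 (adjusted p = 0.000458) and 1.10 ± 0.25 at E13 (adjusted p = 0.00239), a change of -3.97 ± 0.57 (adjusted p = 0.000221). Stc2, whose product inhibits that protease, was near equal at E17, with means of 15.2 CPM in coronary and 13.9 CPM in endocardial libraries (0.14 ± 0.20, adjusted p = 0.604). At E13 it averaged 11.7 CPM in coronary and 2.93 CPM in endocardial libraries, a difference of 1.99 ± 0.16 (adjusted p = 4.54e-07). Among E13 coronary libraries, Pappa was lowest in replicate 1 and highest in replicate 3, like the fibroblast marker sum.

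Among the adapters that carry the receptor signal, Irs1 averaged 3.71 CPM in E17 coronary and 2.07 CPM in E17 endocardial libraries (0.85 ± 0.62, adjusted p = 0.277). At E13 it averaged 12.9 CPM in coronary and 0.948 CPM in endocardial libraries (3.73 ± 0.45, adjusted p = 1.75e-05). Irs2 was lower in coronary libraries at E17 (-2.49 ± 0.41, adjusted p = 0.000281), with means of 8.28 CPM in coronary and 45.8 CPM in endocardial libraries, and not past the threshold at E13 (-0.33 ± 0.26, adjusted p = 0.29). The change of the difference between stages passed for both, at -2.89 ± 0.77 for Irs1 (adjusted p = 0.0131) and -2.16 ± 0.48 for Irs2 (adjusted p = 0.00483). For Irs1 it was lost without E17 endocardial replicate 2 (adjusted p = 0.0818) or E17 coronary replicate 2 (0.0643), in a range of 0.000471 to 0.0818. Both were lower in E17 than in E13 coronary libraries, Irs1 at -1.81 ± 0.52 (adjusted p = 0.0119) and Irs2 at -1.68 ± 0.38 (adjusted p = 0.00281). Neither call held without E17 coronary replicate 2, where adjusted p was 0.135 for Irs1 (range over alternatives 0.000486 to 0.135) and 0.0517 for Irs2 (0.000202 to 0.0517). Among E13 coronary libraries both genes were lowest in replicate 1 and highest in replicate 3, and at E17 both were higher in coronary replicate 1 than in replicate 2, as was the fibroblast marker sum at each stage, whose part was not tested.

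Pik3cb, which encodes a catalytic subunit of phosphoinositide 3-kinase, averaged 85.2 CPM in E17 coronary and 8.49 CPM in E17 endocardial libraries. At E13 it averaged 39.0 CPM in coronary and 4.08 CPM in endocardial libraries. Its excess in coronary libraries was 3.33 ± 0.22 at E17 (adjusted p = 1.19e-07) and 3.26 ± 0.16 at E13 (adjusted p = 1.28e-08), and the change between stages was 0.07 ± 0.27 (adjusted p = 0.868). Gab1, a docking protein gene, was lower in coronary libraries, at -0.83 ± 0.10 at E17 (adjusted p = 2.47e-05) and -1.03 ± 0.07 at E13 (adjusted p = 1.53e-07). Insr was lower in coronary libraries as well, at -0.86 ± 0.09 at E17 (adjusted p = 5.8e-06) and -0.67 ± 0.06 at E13 (adjusted p = 1.71e-06). Grb10, an imprinted adapter that holds back the receptor signal, averaged 1250.1 CPM in E17 coronary and 571 CPM in E17 endocardial libraries, and 984 CPM in E13 coronary and 770.1 CPM in E13 endocardial libraries. It was higher in coronary libraries by 1.13 ± 0.06 at E17 (adjusted p = 2.84e-08) and 0.35 ± 0.04 at E13 (adjusted p = 1.98e-05). Lrp1, a receptor reported to bind IGFBP3, averaged 97.3 CPM in E17 coronary and 24.8 CPM in E17 endocardial libraries (1.97 ± 0.45, adjusted p = 0.00287). Its level was 122 CPM in E17 coronary replicate 1, which had the higher fibroblast marker sum, and 72.1 CPM in replicate 2.

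Igfbp2 and Igfbp5 are neighbours on mouse chromosome 1, on opposite strands with their ends facing and 5457 bp between them in GRCm38, with no annotated gene in the gap. Igfbp2 spans chr1:72824503-72852474 on the plus strand and Igfbp5 spans chr1:72857932-72874884 on the minus strand. Igfbp2 was higher and Igfbp5 lower in coronary libraries at both stages. In endocardial libraries, Igfbp2 was lower at E17 than at E13, at -3.87 ± 0.38, and Igfbp5 changed by a fitted -0.34 ± 0.15 that did not pass. Igfbp3 lies on chromosome 11 beside Igfbp1, 3539 bp away, which had no more than 0.299 CPM in any library.

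For each member, the genes with the most similar pattern were found among 9209 genes as those with the smallest root mean square difference of centred log2(CPM + 1) over the 12 libraries. The nearest to Igf2r was Wls, needed for Wnt secretion, at 0.068. The nearest to Igfbp4 was Tek, the angiopoietin receptor, at 0.087, and the nearest to Igfbp5 were Bmx at 0.152 and Clec4g at 0.158. The nearest to Igfbp3 was Pfkp, a glycolytic enzyme, at 0.172, and the nearest to Igfbp7 was Vwa1, a matrix protein, at 0.366. Igf1 lay nearest to Smarca1 at 0.140, Igf1r nearest to Rps6kc1 and Arhgap5, both at 0.072, and Igfbp2 nearest to Hapln1 at 0.561. The member's own root mean square over the libraries was 0.170 for Igf1r, against 0.692 for Igf2r. A small difference therefore says less for Igf1r, which varied little. All these genes were measured in the same 12 libraries, and the likeness is a description of them. The nearest to Igfbp6 was Sirt1 at 0.156, which for a gene at so few counts carries little information.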

How the data were processed

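Polyadenylated RNA of sorted cells was made into unstranded NEBNext Ultra libraries and sequenced as single reads, per the labels' protocols. The authors deposited 1 table of expected counts per gene, of which 18.3% were not whole numbers. CASAVA 1.8.2, cutadapt 1.3, RSEM 1.2.3 and build GRCm38 are named in the submitters' processing notes, while their settings are not given in these sources. Reads that match several genes are divided by estimate in RSEM, so counts of near-identical copies are uncertain.

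Groups came from the sample titles, and each of the 12 columns matched 1 title. Expected counts were rounded. Genes were kept by filterByExpr (minimum count 10, total 15), which left 15171. Quasi-likelihood tests were run with edgeR 4.0.16 (R 4.3.3) after TMM scaling, in 1 fit of 4 group means over all libraries with 8 residual degrees of freedom, and the E17 groups of 2 libraries thus borrow their spread from the whole set. The common biological coefficient of variation was 0.126. P-values were adjusted by Benjamini-Hochberg over all genes tested, with a threshold of 0.05, in 5 comparisons. Each SE was obtained as the absolute fold change on the log2 scale over the square root of F. Levels per kilobase used exon lengths of a GENCODE annotation of GRCm38, which gave symbols for 40254 identifiers.

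Alternatives were DESeq2 1.42.0 and its size factors, no filter, a fit to the compared libraries only, the batch label as a replicate block, transcript lengths, and each library left out. Transcript lengths were tried for the binding protein shares only, not for ratios between other genes. Each batch holds 1 coronary and 1 endocardial library of 1 stage, so the batch label pairs them. Over 9481 genes, deviations from group means correlated at 0.377, 0.682, 0.367 and 0.478 within E13 batches 1 to 4 and at -0.508 to 0.439 between them. At E17 the correlation was 0.38 within batches, where 2 libraries a group allow no other size. Genes are not independent replicates in these correlations. Replicates differed beyond counting noise (chi-square per gene 4.39 to 39.3), so each counted as 1 library.

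The members and gene lists were chosen with earlier results of these data known. Named pathway genes were, per comparison, up to 4 that passed, with the largest absolute log2 fold change and at least 10 CPM in the higher group, those listed at 0, and Igf2, Insr, Grb10 and Cd93. Other genes are named only where they complete a statement about a member.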

Additional observations from a re-analysis of the deposited data

Results flagged for a closer look

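The coronary minus endocardial difference changed between the stages past the threshold for 6 of 9 members, by the edgeR test of that change with Benjamini-Hochberg adjustment, where 32.7% of all genes tested passed. Among the members the change, E17 minus E13, was -2.70 for Igfbp6 (adjusted p = 0.028), -1.46 for Igfbp5 (0.000214), -1.06 for Igf1 (0.00674), -0.85 for Igf2r (4.09e-05), -0.83 for Igfbp3 (0.0344) and -0.30 for Igfbp4 (0.0275). Igfbp6 had only 3 to 19 counts per library. The calls for Igfbp3, Igfbp4 and Igfbp6 did not hold when certain single libraries were left out, as described for each gene above. Igf1, Igf2r, Igfbp4 and Igfbp5 were lower in coronary libraries by more at E17. Igfbp3 was higher in coronary libraries by less at E17, and Igfbp6 had fitted differences of opposite sign at the stages. All 5 endocardial markers passed with a negative change as well (median -3.66), and their part in the values of the members was not tested. Other pathway genes are named partly for the size of this change, so how many passed is no result. The change was -3.97 for Pappa (0.000221), -3.31 for Htra1 (4.01e-05), -2.89 for Irs1 (0.0131), -2.16 for Irs2 (0.00483), -1.85 for Stc2 (0.000177), -1.12 for Igf2 (7.85e-06), 0.78 for Grb10 (1.2e-05) and 0.96 for Cd93 (0.00132). The Irs1 call, too, did not hold without certain single libraries.

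In 42 groups of 4 libraries, a single library stood apart in 2, where chance alone gives about 1 in 20 groups. Htra1 was at 4.28 CPM in E13 endocardial replicate 1, against 2.26 to 2.60 CPM in the other E13 endocardial libraries. Irs1 was at 1.39 CPM in the same library, against 0.769 to 0.833 CPM in the others. The fibroblast marker sum was 2053 CPM in E13 endocardial replicate 1, against 1822, 2035 and 2012 CPM in replicates 2, 3 and 4, so it was only narrowly the highest. The part of those markers was not tested.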

How the results depend on the processing

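Of 1393 gene-level values under alternatives, 1344 kept their direction and their side of the threshold, 26 lost the call, 6 gained it and 17 changed sign, none of these a call. Of 164 counts of calls, 161 stayed within 1.5 times. Leaving out 1 library gave 3 to 6 members for the endocardial stage comparison, 3 to 6 for the change between stages and 9 to 14 pathway genes for that change, with the lowest counts without E17 endocardial replicate 2, E17 coronary replicate 2 and E17 coronary replicate 2 again. Without 1 library, signs turned for Igfbp2 (change between stages, -0.06 to 1.21, lowest without E17 coronary replicate 1), Igfbp3 (E17 minus E13 in coronary libraries, -0.11 to 0.12, highest without E13 coronary replicate 1), Igfbp6 (the same comparison, -1.47 to 0.11, highest without E17 coronary replicate 2), Igfbp7 (change between stages, -0.62 to 0.13, highest without E17 endocardial replicate 1), Insr (endocardial stage comparison, -0.07 to 0.09) and Cd93 (E17 populations, -0.04 to 0.05). Cd93 was at 0.02 with DESeq2 size factors, 0.01 without a filter and 0.03 in DESeq2, and Insr at -0.00 without a filter. The cause was not tested. The batch as a replicate block changed no member's call, with 8 members called at each stage and 6 for the change between stages, and it could not be fitted for stage comparisons, since each batch holds 1 stage. Of 24 binding protein shares, 10 moved by more than 1 SD with transcript lengths. Insr between stages in coronary libraries passed without E13 coronary replicate 1 (-0.22, adjusted p = 0.0343). Groups of 2 libraries at E17 and counts under 20 for Igfbp6 limit what could be detected.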

Other observations

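More genes of the downstream part of the pathway passed between stages in coronary than in endocardial libraries, as did more of all genes tested. This difference in counts was not tested. Of 16 genes of the phosphoinositide 3-kinase, AKT, FOXO and mTOR branch, 8 were higher and 2 lower in E17 than in E13 coronary libraries, where 50.1% of all genes passed. In endocardial libraries 2 were higher and 1 lower, where 31.8% of all genes passed. Their median absolute log2 fold change was 0.26 in coronary and 0.04 in endocardial libraries, against 0.37 and 0.26 over all genes. Between the populations, 4 were higher and 4 lower in coronary libraries at E17, where 52.6% of all genes passed, and 4 were higher and 5 lower at E13, where 60.0% passed. Of the other receptor genes on the list, M6pr, which encodes the small mannose-6-phosphate receptor and binds no IGF, averaged 119.8 CPM in E17 coronary and 146 CPM in E17 endocardial libraries. At E13 it averaged 103 CPM in coronary and 118 CPM in endocardial libraries. It was lower in coronary libraries, at -0.29 ± 0.07 at E17 (adjusted p = 0.00289) and -0.21 ± 0.05 at E13 (adjusted p = 0.00193, edgeR), which is a smaller difference than that of Igf2r at both stages. M6pr was chosen after its values were seen.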
